A study of Homo sapiens with 10 samples.

Results

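The transcriptome of cells given the guide labelled TOP1 was compared with that of cells given the guide labelled sgRNA. These are 4 of the 10 libraries of the series, 2 in each group, taken by their labels. The features compared are the 11574 of 20246 rows that carried a gene name and had a mean of at least 1 FPKM (fragments per kilobase of transcript, scaled to the fragments of the library) over the 10 libraries. All cells were HEK293FT, a human embryonic kidney line that takes up plasmids readily, here with integrated Gaussia and Cypridina luciferase reporters. All of them received plasmid for dCas9-VP64 by transient transfection, and RNA was taken 3 days later. For the TOP1 and sgRNA groups alike, 125000 cells were plated and transfected with 2.25 uL of Lipofectamine. They received 59 ng of dCas9-VP64 plasmid, 11.6 ng of guide plasmid and 679.4 ng of carrier plasmid. The 2 TOP1 libraries and the 2 sgRNA libraries differ by label in the guide plasmid only, and the U6 promoter drove the guide in both. The other libraries received the INT guide, the P4P6 guide or, in the group labelled CasVP, the activator without a guide, and their levels are given for reference. The labels do not say how the TOP1 guide differs from the sgRNA guide, and nothing in them tells whether replicates were grown apart. P-values are therefore set against the spread between replicate libraries, pooled over the 5 groups of the series, and that spread may be technical. The labels tie the name TOP1 to no gene, and here it means the guide unless the gene is named. Libraries are called replicate 0 and replicate 1 after the index in the deposited column names.

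dCas9-VP64 is a Cas9 protein without nuclease activity joined to a transcriptional activation domain. A guide RNA directs it to a matching DNA site, and bound near a promoter it raises transcription of the gene there. All the guides of the series were directed at the Gaussia reporter, so the Gaussia transcript reads out activation by guide and activator together. Cypridina luciferase is the target of none. Guides made from the U6 promoter are transcribed by RNA polymerase III and carry no poly(A) tail, whereas the libraries were selected for poly(A). The comparison asks which transcripts of the cell, besides the reporter, depend on which of the 2 guides the activator carries.

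The labels of the TOP1 libraries could be checked against the guide rows of the table. The TOP1 guide was listed at 0.331 and 0.441 FPKM in the TOP1 libraries and at 0 in the 8 other libraries. The sgRNA guide was listed at 233 FPKM in sgRNA replicate 0, at 0 in sgRNA replicate 1 and at 0 in both TOP1 libraries. It was also listed at 109 FPKM in P4P6 replicate 0, a library labelled with another guide. That library serves here for the filter and the shared estimate of spread. The sgRNA guide row therefore gave no firm check of either sgRNA library. Its log2 difference of -3.94 (limma adjusted p = 0.9996) rests on 1 library. Estimated depth was 29000000 and 21100000 fragments in the TOP1 libraries, against 20100000 and 26700000 in the sgRNA libraries, and the upper quartile of FPKM was 17.4 to 17.6 in these 4 libraries. Of 14 genes fixed as typical of HEK293 cells, 9 reached at least 5 FPKM in 1 or more of the 4 libraries, among them VIM, LIN28B and NEFL, while PAX2, PAX8, LHX1 and SOX11 stayed under 1 FPKM. Of the listed markers of fibroblasts, endothelium, leukocytes, hepatocytes and erythroid cells, none reached 5 FPKM, the highest was COL1A1 at 1.60 FPKM, and COL1A2, CDH5, TIE1, TTR and SERPINA1 were listed at 0 in the 4 libraries.

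The Gaussia transcript, target of both guides, was much lower with the TOP1 guide. It stood at 257 and 273 FPKM in the TOP1 libraries, against 787 and 857 FPKM in the sgRNA libraries. The groups were far apart, and the TOP1 mean of 265 FPKM (SD 11.2, n = 2) was 32.2% of the sgRNA mean of 822 FPKM (SD 49.5, n = 2). Both groups lay above the CasVP libraries at 23.8 and 22.7 FPKM. The log2 difference on the scale of FPKM + 1, TOP1 minus sgRNA, was -1.63 (SE 0.07, 95% confidence interval -1.79 to -1.47, limma adjusted p = 5.97e-06). This was the only feature of 11574 that passed an adjusted p of 0.05, which is 0.00864% of those tested. An exact permutation test of 2 libraries against 2 can give no p under 0.333. In bulk RNA, fewer transfected cells and less RNA per cell cannot be told apart.

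The transcript of the activator itself had the next lowest p-value of all features, without passing. dCas9-VP64 stood at 16.1 and 17.1 FPKM in the TOP1 libraries, against 24.0 and 23.4 FPKM in the sgRNA libraries. The groups did not overlap, and the TOP1 mean was 70.0% of the sgRNA mean (log2 difference -0.49, SE 0.07, 95% confidence interval -0.64 to -0.33, limma adjusted p = 0.195). With libraries weighted by their quality the adjusted p was 0.0195. Compared with other guides, the TOP1 libraries were near the P4P6 libraries (17.1 and 20.1 FPKM) and the CasVP libraries (14.8 and 14.6 FPKM), and the sgRNA libraries were near the INT libraries (25.6 and 25.9 FPKM).

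Cypridina luciferase, which no guide targets, was also lower in both TOP1 libraries, at 1.14 and 1.01 FPKM, against 1.62 and 1.38 FPKM in the sgRNA libraries. It stood at 1.40 and 1.15 FPKM in the CasVP libraries, 1.45 and 2.03 FPKM in INT and 1.54 and 1.71 FPKM in P4P6. The TOP1 mean was 71.8% of the sgRNA mean, beside 70.0% for dCas9-VP64. The log2 difference was -0.27 (SE 0.12, 95% confidence interval -0.53 to -0.01), with an unadjusted p of 0.0453 and a limma adjusted p of 0.9996. Its level lay near the filter at 1 FPKM, where the added 1 weighs most, and with a pseudocount of 0.1 the difference was -0.44.

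Since both of the other construct transcripts were lower with TOP1, the Gaussia level was also set against each of them within each library. Per FPKM of dCas9-VP64, Gaussia stood at 16.0 and 15.9 in the TOP1 libraries, against 32.8 and 36.7 in the sgRNA libraries. The TOP1 mean of this ratio was 46.0% of the sgRNA mean. Per FPKM of Cypridina, Gaussia stood at 225 and 270 in the TOP1 libraries, against 487 and 620 in the sgRNA libraries, a mean of 44.7%. On either measure the TOP1 libraries lay below both sgRNA libraries, at a smaller distance than on the Gaussia level alone. The ratio to dCas9-VP64 was 13.9 and 14.1 in the INT libraries, 11.0 and 8.10 in the P4P6 libraries and 1.61 and 1.56 in the CasVP libraries. By that ratio both TOP1 libraries stood above both INT libraries, although their Gaussia level was the lower (356 and 366 FPKM in INT). On the ratio to Cypridina the TOP1 and INT libraries overlapped, with INT at 245 and 180. That ratio was 122 and 94.8 in P4P6 and 17.1 and 19.7 in CasVP. Whether less activator has a part in the lower Gaussia level was not tested.

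**Figure D1:**
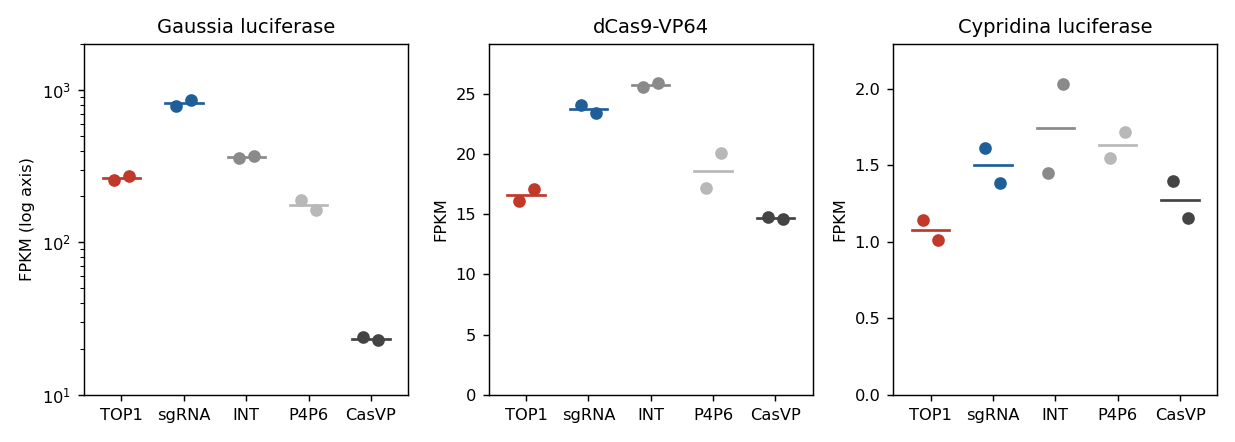
FPKM of the Gaussia, dCas9-VP64 and Cypridina transcripts in each library (points) with the mean of each group of 2 (line); the Gaussia axis is logarithmic and the other axes start at 0. In all 3 panels both TOP1 libraries lie below both sgRNA libraries, with Gaussia at 257 and 273 FPKM against 787 and 857 FPKM.

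Beyond the constructs, no endogenous transcript passed. Of 11570 endogenous features tested with limma, 0 had an adjusted p under 0.05, and the lowest adjusted p was 0.9996. An unadjusted p under 0.05 was reached by 192 endogenous features, 61 with the higher mean in TOP1 and 131 with the lower. Over all features this was 195, or 1.68% of those tested. A threshold of 0.05 passes a larger share on average where nothing differs, so the split of 61 and 131 is only a description. No other tool was run on these FPKM values, since read counts were not used here. The middle of the endogenous log2 differences ran from -0.04 (lower quartile) to 0.04 (upper quartile), with a median of 0.00.

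Most of these differences could be bounded relative to the spread between replicate libraries, which may be technical. The median SE of a log2 difference was 0.07. For 11463 endogenous features, 99.1% of those tested, the 95% confidence interval of the difference allowed no change beyond 1.5-fold in FPKM + 1. For 11557 it allowed none beyond 2-fold. Near the filter a change in FPKM + 1 understates the change in FPKM, but among the 9124 endogenous features with a mean of at least 5 FPKM the share within 1.5-fold was 99.6%. These intervals are for single features and were not widened for the number of features.

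**Figure D2:**
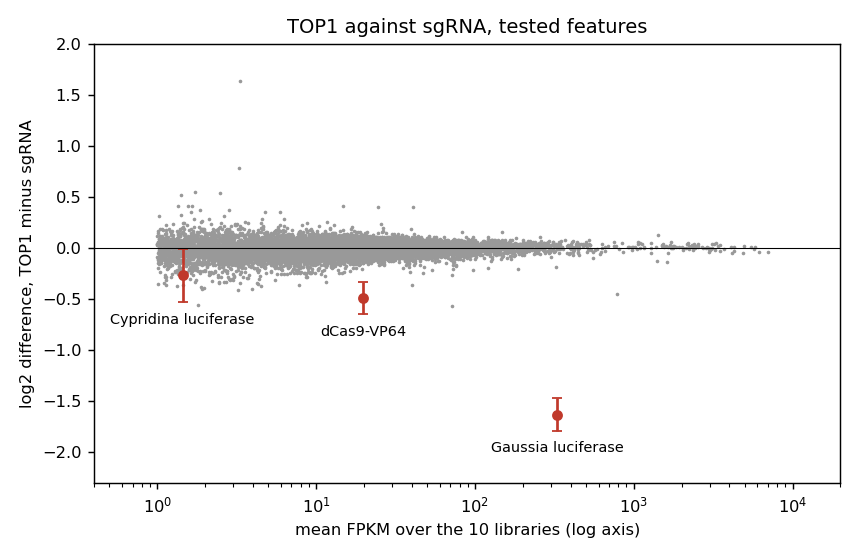
Log2 difference, TOP1 minus sgRNA, against mean FPKM over the 10 libraries (log axis) for the tested features; grey points are endogenous, red points are 3 construct transcripts with 95% confidence intervals. Gaussia luciferase at -1.63 and dCas9-VP64 at -0.49 stand below the band of endogenous genes of the same level; the sgRNA guide row, above 0 in 1 of these 4 libraries, is outside the axis.

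The 2 groups were about as close to each other as the replicates within them. The SD over endogenous features of the log2 difference between a TOP1 and an sgRNA library was 0.105 to 0.126 in the 4 such pairs. It was 0.138 between the 2 TOP1 libraries and 0.114 between the 2 sgRNA libraries. Of the 10 pairs of groups in the series, TOP1 with sgRNA had the lowest mean SD, 0.116, followed by sgRNA with CasVP at 0.124. TOP1 with CasVP gave 0.135, and the highest was TOP1 with P4P6 at 0.207.

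Differences of endogenous genes between TOP1 and sgRNA were not positively correlated between separate pairs of libraries. Over 11570 endogenous features, the difference of TOP1 replicate 0 from sgRNA replicate 0 and that of TOP1 replicate 1 from sgRNA replicate 1 had a Pearson's r of -0.07, given as a description because genes of the same 4 libraries are not independent. The sign was the same for 52.8% of features. A difference of more than 1.25-fold in both pairs had the same sign for 9 features and opposite signs for 25. Both TOP1 libraries lay on the same side of both sgRNA libraries for 29.2% of the tested features, 15.1% with TOP1 higher and 14.1% with TOP1 lower.

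**Figure D3:**
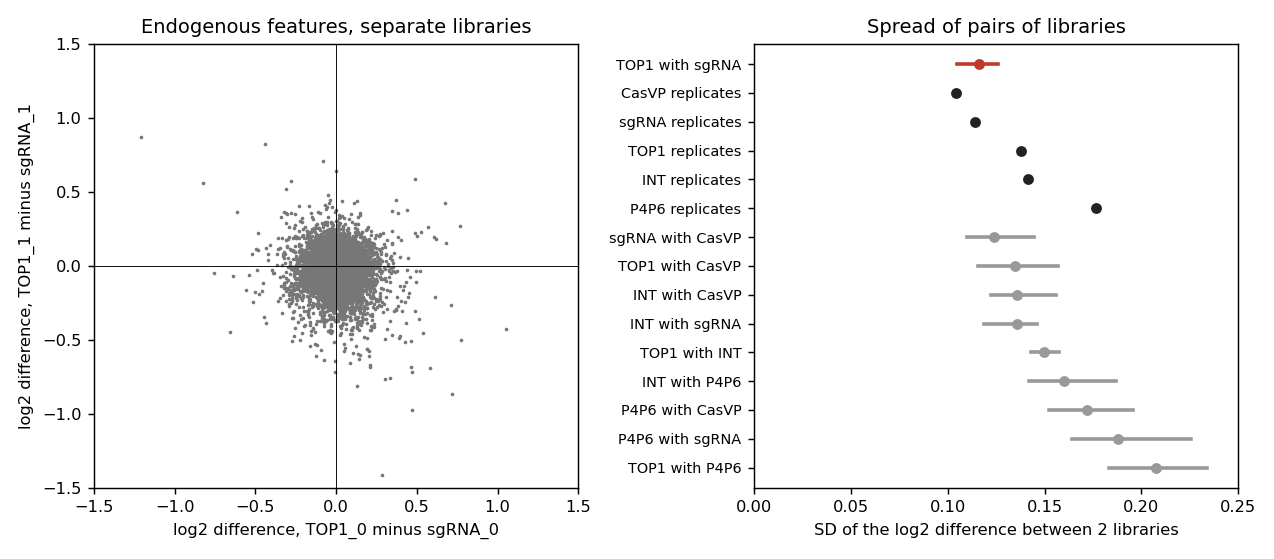
Left, log2 difference of each endogenous feature in the pair with index 0 (horizontal) and the pair with index 1 (vertical), with 3 features outside the drawn range. Right, SD over features of the log2 difference between 2 libraries, as the mean (point) and range (line) over the pairs of 2 groups or as the single value between replicates; TOP1 with sgRNA averages 0.116, between the sgRNA replicates at 0.114 and the TOP1 replicates at 0.138.

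The genes named next are from the 12 in each direction with the largest estimates among those with a mean of at least 5 FPKM and no overlap between the groups. They were picked by the values of this comparison, so their levels are a description, and none passed (limma adjusted p = 0.9996 for each). Just outside the set was FAM76A at a log2 difference of 0.19. Among the lower genes, MBOAT7 was the last inside and EPHX2 the first outside, both at -0.24. Leaving out 1 library moved the estimate by over 1.5 times for 12 of the 23 genes described. It could not turn the sign of any, since they were chosen for having no overlap between the groups.

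ANKS1A, an adaptor of Eph receptors, had the highest estimate. It stood at 16.3 and 15.1 FPKM in the TOP1 libraries, against 12.3 and 10.8 FPKM in the sgRNA libraries (log2 difference 0.41, SE 0.10). The TOP1 libraries were inside the range of the 6 remaining libraries, 13.4 to 17.1 FPKM, and the sgRNA libraries were below all of them. HYI, a homologue of hydroxypyruvate isomerase, was at 7.04 and 6.75 FPKM with TOP1, against 4.69 and 5.72 FPKM with sgRNA. Here the TOP1 libraries stood above the 8 others. ACYP1, an acylphosphatase gene, also had both TOP1 libraries above all others, at 32.7 and 31.1 FPKM, against 29.7 and 24.5 FPKM with sgRNA.

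Among the same genes are 2 with roles in cell division and genome maintenance. CENPE, the kinesin of the kinetochore, was at 28.97 and 28.20 FPKM in the TOP1 libraries, against 18.7 and 24.6 FPKM in the sgRNA libraries. C1orf112, a gene linked to DNA crosslink repair, was at 51.6 and 48.4 FPKM, against 33.2 and 42.5 FPKM. For both genes the sgRNA replicates were farther apart than the TOP1 replicates, and CasVP averaged 22.6 FPKM for CENPE and 42.1 FPKM for C1orf112.

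SDHA, the flavoprotein of respiratory complex II, stood at 11.9 and 13.3 FPKM with TOP1, against 10.6 and 10.1 FPKM with sgRNA. Its name is on more than 1 row and it has near-identical copies, so its value is uncertain. CREB1, the transcription factor of cyclic AMP signalling, was at 13.5 and 14.5 FPKM, against 11.53 and 12.19 FPKM. TPM2, a tropomyosin, was at 9.51 and 8.62 FPKM, against 7.69 and 7.27 FPKM. In none of the 3 did the TOP1 libraries leave the range of the INT, P4P6 and CasVP libraries altogether.

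A further 3 higher genes were of similar level. PCOLCE, an enhancer of procollagen processing, averaged 7.18 FPKM with TOP1 and 5.65 FPKM with sgRNA (SD 1.62 and 0.318, n = 2 each). CDS1, a CDP-diacylglycerol synthase, averaged 10.8 and 9.13 FPKM (SD 0.0349 and 0.322). LIN7A, a scaffold of cell polarity, averaged 6.884 and 5.804 FPKM (SD 0.0102 and 0.191). In each of the 3, at least 1 TOP1 library was within the range of the INT, P4P6 and CasVP libraries.

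Among the genes with lower values in TOP1, SUFU, an inhibitor of the Hedgehog pathway, was at 4.62 and 4.28 FPKM in the TOP1 libraries, against 5.68 and 5.32 FPKM in the sgRNA libraries. EFNA1, the Eph receptor ligand ephrin-A1, was at 8.35 and 9.40 FPKM, against 10.4 and 11.1 FPKM. SERTAD1, a CDK4-binding coregulator, was at 5.02 and 4.45 FPKM, against 5.72 and 6.52 FPKM. MBOAT7, an acyltransferase of phosphatidylinositol, was at 12.2 and 11.8 FPKM, against 14.0 and 14.9 FPKM. In these 4 genes both TOP1 libraries were below the 8 others of the series.

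ST20 had the lowest estimate of this set (log2 difference -0.33, SE 0.11), at 11.8 and 8.93 FPKM with TOP1, against 13.8 and 12.6 FPKM with sgRNA. It was -0.15 without TOP1 replicate 1 and -0.52 without TOP1 replicate 0. For ST20, the tRNA modification gene DTWD1 and the pseudogene NACAP1 it was the sgRNA libraries that stood above the 8 others. DTWD1 averaged 8.48 FPKM with TOP1 and 10.2 FPKM with sgRNA (SD 1.17 and 0.803). NACAP1, whose reads can be shared with its parent gene, averaged 10.8 and 13.1 FPKM (SD 1.38 and 0.164).

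In the last 5, at least 1 TOP1 library was within the range of the INT, P4P6 and CasVP libraries. YPEL3 was at 6.93 and 6.98 FPKM with TOP1, against 9.10 and 8.29 FPKM with sgRNA. ZDHHC24, of the palmitoyltransferase family, averaged 7.70 FPKM with TOP1 and 9.53 FPKM with sgRNA (SD 1.44 and 0.251). HSD11B1L, CTXN1 and the bHLH-PAS factor gene NPAS1 had log2 differences of -0.25 each, with 95% confidence intervals that reached above 0.

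**Figure D4:**
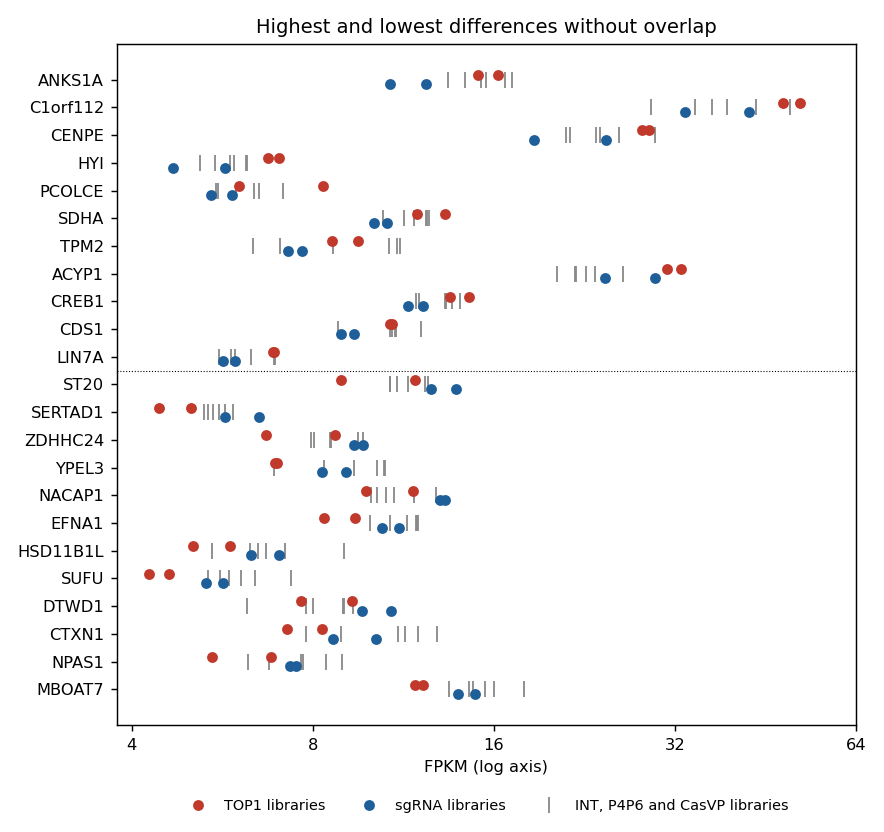
FPKM (log axis) of the genes taken from the 12 with the highest and the 12 with the lowest log2 difference, in the TOP1 libraries (red), the sgRNA libraries (blue) and the INT, P4P6 and CasVP libraries (grey bars). Only for HYI, ACYP1, SERTAD1, EFNA1, SUFU and MBOAT7 do both TOP1 libraries lie outside all the others.

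By p-value rather than size, the first endogenous genes were MOSPD3 and LRP5L, chosen here after their values were seen. MOSPD3 stood at 5.75 and 4.85 FPKM in the TOP1 libraries, against 3.82 and 4.01 FPKM in the sgRNA libraries (log2 difference 0.35, limma unadjusted p = 0.00189, adjusted p = 0.9996). LRP5L stood at 3.21 and 3.01 FPKM, against 3.90 and 4.15 FPKM (log2 difference -0.29, limma unadjusted p = 0.00212, adjusted p = 0.9996).

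Transcripts under the filter were looked at for genes switched on with either guide. Of 7724 named endogenous features with a mean under 1 FPKM, 5400 were above 0 in some library. No endogenous feature, under or over the filter, reached 1 FPKM in both libraries of a group while staying under 0.1 FPKM in both of the other. Nor did any with both libraries of a group at 1 FPKM or more have both at least 2 times those of the other.

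DEFB134, a gene of the beta-defensin family of antimicrobial peptides, came closest to such a switch. It was listed at 0.921 and 1.15 FPKM in the TOP1 libraries and at 0 in both sgRNA libraries and the 6 others. It was singled out after its values were seen. Without a filter on low values it passed (log2 difference 1.02, limma adjusted p = 0.000193), together with the TOP1 guide row (0.47, adjusted p = 0.00511) and Gaussia. The DEFB134 and guide rows enter that fit only through the 2 TOP1 libraries, so their p-values are no support for a difference. The 8 libraries at 0 have no spread, so the SE for DEFB134 rests on the 2 TOP1 libraries and the spread of other features. At the estimated depths and the 2 transcript lengths in GENCODE v29, 314 and 1068 bases, its values stand for about 8.4 to 28 fragments in TOP1 replicate 0 and 7.6 to 26 in TOP1 replicate 1.

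Listing in both libraries of a single group was seen for other features too, at far lower levels. It held for 9 endogenous features in TOP1, 9 in sgRNA, 7 in INT, 8 in P4P6 and 3 in CasVP. Next to DEFB134 in TOP1 was the troponin gene TNNI2, with 0.0808 FPKM in its lower library. The highest lower-library value in another group was 0.0739 FPKM, for MCCD1 in P4P6. DEFB134 was the only feature of this kind with at least 0.1 FPKM in both libraries. It has many relatives in the defensin cluster, and whether its reads could belong to another sequence was not tested.

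Gene lists for stress, growth and transcription programmes were then described by their members. No member of the 17 lists passed over all genes. Each count is read beside the background of all tested features, of which 51.4% had an estimate above 0 and 48.6% below 0. Libraries did not overlap for 29.2% of all tested features, 15.1% with TOP1 higher and 14.1% with TOP1 lower. Per-library scores are the median over a list's tested members of the log2 deviation from each gene's mean over the 10 libraries.

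Of 26 tested p53 target genes, 7 had estimates above 0 and 19 below (median log2 difference -0.02). The libraries did not overlap for 2 higher and 4 lower, beside 15.1% and 14.1% of all features. MDM2, the ubiquitin ligase that limits p53, was at 69.8 and 61.5 FPKM with TOP1, against 68.4 and 58.4 FPKM with sgRNA. The growth inhibitor BTG2 was at 13.2 and 11.3 FPKM, against 13.9 and 12.4 FPKM. PLK3 and TP53I3 had log2 differences of 0.14 and -0.10. The score was -0.01 and 0.11 in the TOP1 libraries, against 0.02 and 0.11 in the sgRNA libraries, so the replicates of each group were farther apart than the groups.

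The stress responses of the endoplasmic reticulum and cytosol had medians near 0. Of 20 integrated stress response genes, 11 were above 0 and 9 below (median 0.00), with NUPR1 and DDIT3 at 0.08 and 0.07, and SLC3A2 and ATF5 at -0.07 and -0.12. DDIT3, which encodes the factor CHOP, stood at 71.9 and 77.0 FPKM with TOP1, against 68.5 and 72.8 FPKM with sgRNA. Of 17 unfolded protein response genes, 13 were above 0 (median 0.02), and the range ran from -0.03 for DNAJB9 to 0.06 for DNAJC3. Of 13 heat shock genes, 6 were above 0 and 7 below (median -0.02). HSP90AA1, an HSP90 gene, was at 399 and 444 FPKM with TOP1, against 396 and 426 FPKM with sgRNA, and HSPA1B, an inducible HSP70 gene, was at 10.97 and 9.208 FPKM, against 11.8 and 10.4 FPKM.

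Of 12 tested interferon-stimulated genes, 2 had estimates above 0 and 10 below, with a median log2 difference of -0.08 beside 0.00 for all endogenous features. The libraries did not overlap for 5 of the 12, all lower in TOP1, where 14.1% of all features did so in that direction. ISG15, a ubiquitin-like modifier, stood at 7.56 and 7.05 FPKM in the TOP1 libraries, against 9.14 and 8.46 FPKM in the sgRNA libraries. IFI6 was at 6.751 and 5.804 FPKM, against 6.95 and 8.27 FPKM. IFIT1, an RNA-binding antiviral protein gene, was at 1.38 and 1.52 FPKM, against 1.69 and 1.90 FPKM, and BST2, which tethers budding virus, at 0.894 and 0.777 FPKM, against 1.05 and 1.14 FPKM. The last is near or under 1 FPKM in all 4. IFIT1, BST2, STAT2, TBK1 and ADAR, outside the rule for named genes, were picked from these lists after their values were seen. All of them are lower in TOP1 without overlap. Libraries overlapped for IFI27, IFI35, DDX58 and EIF2AK2, among others, at log2 differences of -0.15, -0.01, -0.07 and -0.04. The filter left 12 of the 28 interferon genes with a row of their own.

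STAT2, a transcription factor of the interferon response, was at 7.18 and 7.70 FPKM, against 8.15 and 7.86 FPKM. The antigen transporter TAP1 had the highest estimate, 0.09. The list's score was -0.10 and -0.07 in the TOP1 libraries, against 0.00 and 0.02 in the sgRNA libraries. In the CasVP libraries it was -0.05 and 0.01, in INT 0.03 and 0.05 and in P4P6 0.01 and 0.11. Both TOP1 libraries thus had the lowest scores of the 10. This did not hold for each member. ISG15 and IFI6 were lower in CasVP replicate 0 (6.61 and 5.16 FPKM) than in both TOP1 libraries. IFIT1 was lower in INT replicate 0 (1.15 FPKM) and BST2 in P4P6 replicate 1 (0.722 FPKM). For STAT2 both TOP1 libraries were below all others. No member passed.

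Cytosolic sensors of foreign nucleic acid share 3 tested genes with that list. The filter left 9 of the 20 sensor genes with a row of their own. Of these 9, 8 had estimates below 0 (median -0.07). For 5 the libraries did not overlap, all lower in TOP1, beside 14.1% of all features. IRF3, the factor that sensor signals activate, stood at 25.1 and 26.2 FPKM in the TOP1 libraries, against 27.0 and 28.3 FPKM in the sgRNA libraries. TMEM173, which encodes STING, was at 1.20 and 1.06 FPKM, against 1.38 and 1.24 FPKM. The kinase TBK1 was at 10.8 and 10.9 FPKM, against 11.2 and 11.8 FPKM, and the RNA-editing enzyme gene ADAR at 70.00 and 72.69 FPKM, against 75.22 and 72.70 FPKM. MAVS, the adaptor of RNA sensors on mitochondria, was the exception, at 11.9 and 9.92 FPKM, against 10.9 and 10.4 FPKM. Over both lists, 15 of 18 tested genes had estimates below 0, and 10 did not overlap, all lower in TOP1, beside 14.1% of all features.

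NF-kappaB targets and immediate early genes were mixed. Of 9 tested NF-kappaB targets 6 were above 0 (median 0.02). IL8, a chemokine gene, had the highest estimate at 1.595 and 2.451 FPKM with TOP1, against 1.592 and 1.210 FPKM with sgRNA (log2 difference 0.32). It was 0.12 without TOP1 replicate 1 and 0.53 without TOP1 replicate 0. Of 17 immediate early genes 9 were above 0 and 8 below (median 0.00). FOS was at 4.684 and 4.203 FPKM, against 3.18 and 4.01 FPKM, while FOSB and JUND had log2 differences of -0.14 and -0.12.

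Metabolic lists were close to 0. Sterol and fatty acid synthesis genes had a median of -0.02 over 25 tested, with 10 above 0. Mevalonate decarboxylase, MVD, stood at 14.37 and 14.07 FPKM with TOP1, against 16.02 and 16.28 FPKM with sgRNA (log2 difference -0.17). ACACA and NSDHL were at 0.07 and 0.06. Hypoxia and glycolysis genes had a median of 0.00 over 27 tested, from -0.17 for the peptide hormone gene ADM to 0.08 for the kinase gene PDK1.

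The cell cycle list had 22 of 35 tested genes above 0 (median 0.01), with 8 higher and 5 lower without overlap, beside 15.1% and 14.1% of all features. CENPE, described above, had its highest estimate. CDT1, a replication licensing factor, had the lowest, at 44.5 and 38.0 FPKM with TOP1, against 47.20 and 45.03 FPKM with sgRNA (log2 difference -0.16). Replication-dependent histone genes, whose main transcripts lack a poly(A) tail, spread more widely, from -0.23 for HIST1H2AM to 0.52 for HIST1H2BC (median 0.03 over 18 tested). HIST1H2BC stood at 1.84 and 1.78 FPKM, against 0.668 and 1.30 FPKM, and was the only member without overlap.

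Ribosomal protein genes lay close to 0 as a list. Of 69 tested, 48 had estimates above 0, with a median of 0.01 (0 after quantile rescaling), and 68 had confidence intervals within 1.5-fold. Their score was 0.09 and 0.14 in the TOP1 libraries and 0.08 and 0.13 in the sgRNA libraries. It was -0.01 and 0.03 in CasVP, -0.10 and 0.01 in INT and -0.23 and -0.14 in P4P6. RPL28 was at 314 and 307 FPKM with TOP1, against 295 and 298 FPKM with sgRNA. RPS15 and RPLP2 had the lowest estimates, both -0.13. In RPS15 this came from TOP1 replicate 1, at 1233 FPKM beside 1678 in TOP1 replicate 0, against 1582 and 1566 FPKM with sgRNA.

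Nuclear-encoded respiratory chain genes had 30 of 68 tested members above 0 (median 0.00), and all 68 had confidence intervals within 1.5-fold. The libraries did not overlap for 13 higher and 4 lower, beside 15.1% and 14.1% of all features. The score was 0.07 and 0.08 in the TOP1 libraries and 0.07 and 0.08 in the sgRNA libraries. It was -0.01 and 0.02 in CasVP, -0.06 and 0.01 in INT and -0.14 and -0.12 in P4P6. COX5A, of cytochrome c oxidase, stood at 169 and 156 FPKM with TOP1, against 154 and 153 FPKM with sgRNA. COX8A, of the same complex, was at 399 and 277 FPKM, against 372 and 382 FPKM.

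RNA polymerase III genes, which include the machinery that transcribes U6-driven guides, had 16 of 33 members above 0 and 17 below (median 0.00). The libraries did not overlap for 7 higher and 8 lower, beside 15.1% and 14.1% of all features. BDP1, a subunit of the initiation factor TFIIIB, stood at 19.4 and 19.8 FPKM with TOP1, against 17.0 and 18.3 FPKM with sgRNA. SNAPC4, of the complex that binds U6-type promoters, was at 7.36 and 7.67 FPKM, against 8.51 and 8.09 FPKM. POLR3K and POLR3D, subunits of the polymerase, had log2 differences of 0.09 and -0.11.

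Alpha-arrestins and NEDD4-type ubiquitin ligases, which act together on membrane proteins, had 8 of 13 members above 0 (median 0.01). WWP1 was at 13.89 and 14.05 FPKM with TOP1, against 12.93 and 13.05 FPKM with sgRNA. NEDD4L varied most, at 14.1 and 5.16 FPKM with TOP1, against 14.2 and 9.11 FPKM with sgRNA, and its estimate of -0.36 came with groups that overlapped.

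Topoisomerase genes, among which is a gene with the same name as the guide, had 6 of 7 tested members above 0 (median 0.05). TOP1 itself, DNA topoisomerase 1, stood at 50.5 and 52.9 FPKM in the TOP1 libraries, against 49.0 and 50.5 FPKM in the sgRNA libraries (log2 difference 0.05, 95% confidence interval -0.07 to 0.18). TOP2B was at 81.6 and 80.4 FPKM, against 75.8 and 77.4 FPKM. TDP1, which removes topoisomerase from DNA ends, had an estimate of 0.06, and TOP3B and TOP3A had 0.01 and -0.01.

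**Figure D5:**
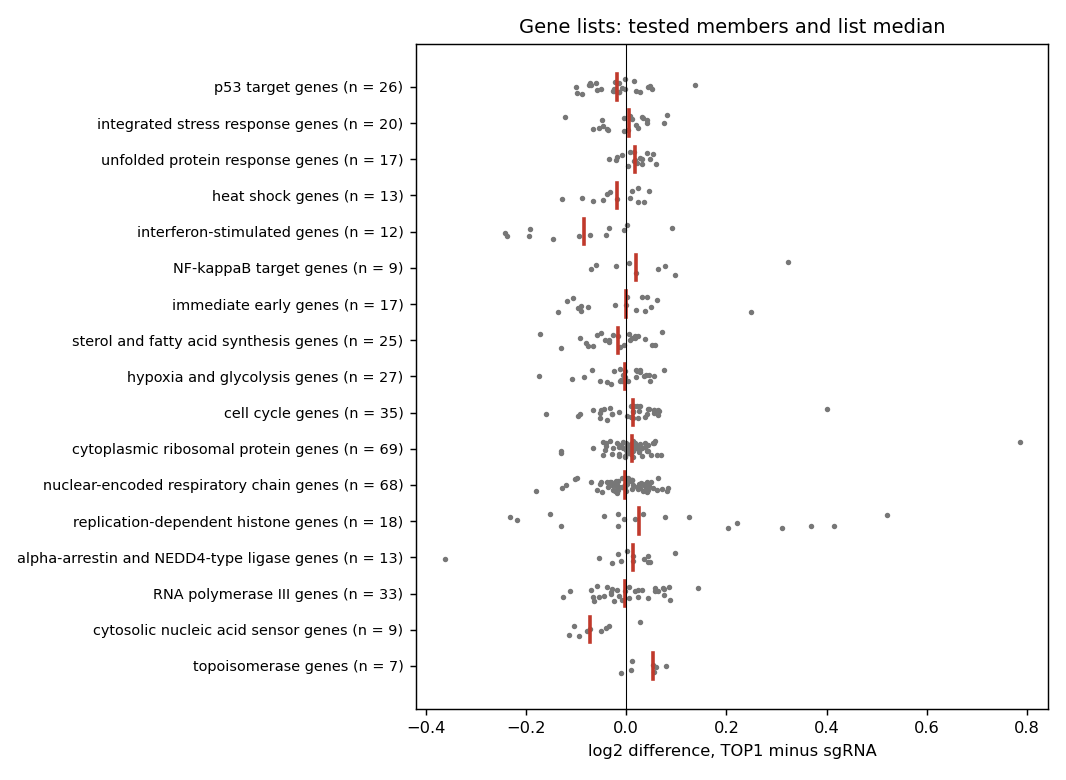
Log2 difference, TOP1 minus sgRNA, of each tested member (points) and the list median (red line) for 17 gene lists. Medians lie between -0.08 for interferon-stimulated genes and 0.05 for topoisomerase genes, and the points beyond 0.3 on either side include CENPE, IL8, NEDD4L and 4 histone genes.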

How the data were processed

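Poly(A)-selected RNA was sequenced from 10 libraries in 5 groups of 2. The authors deposited FPKM values, 1 column per library. The header names no unit. TopHat2 2.0.13, Cuffdiff 2.2.1 and the build hg19 are named in the submitters' processing notes; what each did, and how libraries were scaled, is not given in the sources used here. FPKM removes the read count, so small differences at low FPKM carry counting error that the values do not show.

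Columns were assigned to groups by name; the index was not matched to replicate numbers. Rows without a name (945) were left out. Relative depth came from the steps of 1890 features with a mean of at most 0.05 FPKM (73.3% of the 8562 values above the lowest of their feature were whole multiples of it within 0.05). The total in CasVP replicate 0, from lengths of 223 GENCODE v29 transcripts, has an interquartile range of 26200000 to 30100000 fragments.

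Log2(FPKM + 1) was fitted over all 10 libraries, a mean per group, using limma 3.58.1 (R 4.3.3) with its trend option. P-values are two-sided, with Benjamini-Hochberg adjustment over all 11574 features. The script was tested on simulated data. Alternatives were another pseudocount (0.1), no filter or one at 5 FPKM, 2 rescalings, the 4 libraries only, a replicate block, no trend, library weights and each library left out. Named genes are all construct rows, features that passed, the 12 each way with the largest differences as described, 2 each way per list, and the gene TOP1; some genes the rule takes are not reported here. The comparison and lists were chosen with earlier results of these data known. A list gene with several rows was taken from its highest row, and list genes found only in a joint row were not used.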

Additional observations from a re-analysis of the deposited data

Results flagged for a closer look

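Signals above the CasVP level of 0 were found in rows or libraries that the comparison of TOP1 with sgRNA does not use. DEFB134, which is under the filter on low values, was listed at 0.921 FPKM in TOP1 replicate 0 and 1.15 FPKM in TOP1 replicate 1, and at 0 in all other libraries. The TOP1 guide row, also under the filter, was listed at 0.331 and 0.441 FPKM in the same libraries. The sgRNA guide row was listed at 109 FPKM in P4P6 replicate 0, a library labelled with another guide, and at 0 in P4P6 replicate 1. The INT guide row was listed at 1.38 FPKM in INT replicate 0. The P4P6 guide row was listed at 0.440 and 0.761 FPKM in the P4P6 libraries. Groups of 2 libraries are too small to look for single outlying libraries.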

How the results depend on the processing

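The Gaussia difference passed under all 13 alternatives, at -1.69 to -1.57 (adjusted p 4.92e-07 to 0.000198). The count of features that passed was 1 in the main fit and 1 under each alternative but 2: it was 3 without a filter, where 1 endogenous feature (DEFB134) passed, and 2 with library weights, where dCas9-VP64 passed as well (-0.49, adjusted p = 0.0195). For dCas9-VP64 the adjusted p was otherwise up to 1.00. With the column index as a replicate block the count was 1 and no call changed. Deviations of equal index correlated at 0.20 over features between the 2 groups. The labels do not say whether libraries of equal index share anything besides the index. Pairing the libraries crosswise, an alternative added after seeing the data, gave a correlation of the paired differences of -0.26. Leaving out 1 library put a group down to a single library, assumed to vary like the others; the count stayed at 1.

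Of the 88 endogenous genes of the naming rule that are reported, none passed in any of 1132 values under alternatives, and 1099 kept their sign. Leaving out 1 library moved 12 of the 23 largest differences and 54 of the 65 other estimates by over 1.5 times. The 23, chosen without overlap between the groups, could not turn their sign in this way. Those that turned with a library left out ranged as follows on the log2 scale: MDM2 -0.061 to 0.16, BTG2 -0.20 to 0.0073, TP53I3 -0.25 to 0.049, NUPR1 -0.032 to 0.19, CALR -0.062 to 0.019, DNAJB9 -0.097 to 0.027, DNAJA1 -0.010 to 0.10, HSP90AA1 -0.041 to 0.11, RELB -0.072 to 0.27, NFKB2 -0.15 to 0.010, JUND -0.30 to 0.065, BNIP3L -0.012 to 0.12, CCNE2 -0.22 to 0.029, RPS15 -0.35 to 0.092, RPLP2 -0.32 to 0.063, COX8A -0.44 to 0.082, HIST1H2AM -0.66 to 0.19, NEDD4L -1.01 to 0.28, MAVS -0.093 to 0.15, TDP1 -0.028 to 0.15, TOP3B -0.073 to 0.090 and TOP3A -0.058 to 0.037. The sgRNA guide row ranged from -7.87 to 0, which it took without sgRNA replicate 0. Medians of 5 of the 17 lists (unfolded protein response, heat shock, interferon-stimulated, nucleic acid sensor and topoisomerase genes) kept their sign under all 13 alternatives; for interferon-stimulated genes the median ran from -0.12 to -0.04. The cause of these changes was not tested.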

Other observations

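Some transcripts differed more between replicates of a guide than between the guides, chosen here after their values were seen. The cytokine gene MIF stood at 109.8 and 30.7 FPKM in the TOP1 libraries, against 89.9 and 83.3 FPKM in the sgRNA libraries. B3GNT8, a glycosyltransferase gene, was at 12.4 FPKM in TOP1 replicate 0 and 0.174 FPKM in TOP1 replicate 1, against 0.340 and 0.216 FPKM in the sgRNA libraries, and reached 19.5 FPKM in P4P6 replicate 1. Its log2 difference of 1.63 was the largest of any endogenous feature, with an SE of 1.22. The signals in these genes were not traced to a sequence.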
